A study of Mus musculus with 2 samples.

Results

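The cells described here are mouse lung alveolar macrophages that were neither cycling nor in a strong interferon state. They were picked by their own mRNA: of 10088 cells that passed the filters (at most 20% mitochondrial UMIs, at most 20000 UMIs and at least 500 genes detected), 4800 had at least 10 UMIs of Chil3, Ear1 and Krt79 together per 10000 UMIs. They also held fewer than 5 UMIs of the complement genes C1qa, C1qb and C1qc, no UMI of the dendritic cell genes Cd209a, Xcr1 and Ccr7, and fewer than 5 UMIs of 6 cell-cycle genes (Top2a, Mki67, Birc5, Cdk1, Pclaf and Rrm2). Fewer than 20 UMIs per 10000 came from the interferon-response genes Ifit1, Ifit2, Ifit3, Isg15, Rsad2 and Cxcl10. A UMI is a molecular barcode that counts 1 captured mRNA molecule once. All of these 21 genes were used to choose the cells, so their levels below are descriptions.

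The study sorted lung dendritic cells and macrophages from age-matched female C57BL/6J mice on 3 treatments. Lungs of 8 animals were pooled; whether that is the number per treatment is not given in the sources used here. Control mice had received the adjuvant Alum without ovalbumin and then intranasal saline. The asthma group was sensitised with ovalbumin in Alum and challenged with intranasal ovalbumin. Mice on the tolerance protocol inhaled ovalbumin before the same sensitisation and challenge. The cells of each pool carried their own hashtag antibody, all cells carried a CLEC12A antibody tag, and equal numbers of cells were mixed and run on 2 lanes of a droplet instrument, so each lane holds all 3 pools. The lanes are technical repeats of 1 pool of mice per treatment. No test between treatments was possible and no p-value is given. The 95% intervals cover counting error only, not the spread between cells, lanes or mice, and can be narrower than the difference between lanes.

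Alveolar macrophages live on the air side of the lung epithelium, where they take up inhaled particles and surfactant lipid. Their identity depends on GM-CSF and TGF-beta signals and the lipid-sensing transcription factor PPARG. In allergic inflammation the type 2 cytokines IL-4 and IL-13 act on macrophages through STAT6 and raise a set of genes known as alternative activation, while interferons act through other STAT proteins on a separate set.

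The pools gave 2357 control, 1643 asthma and 800 tolerance alveolar macrophages. By lane they made up 71.0% and 69.2% of the control cells, 40.7% and 40.9% of the asthma cells, and 30.04% and 29.2% of the tolerance cells. With both lanes together the shares were 70.1% (95% Clopper-Pearson interval 68.5 to 71.7), 40.8% (39.3 to 42.4) and 29.6% (27.9 to 31.4). The lanes were close to each other, and the 3 pools did not overlap. A share among sorted cells depends on how many macrophages and dendritic cells were sorted, and falls when other cells are added. Fewer alveolar macrophages, more of other cells and the sort itself therefore cannot be told apart. Among all alveolar macrophages, the interferon-high cells set aside by the rule made up 1 of 2438 in control, 94 of 1822 (5.16%) in asthma and 87 of 950 (9.16%) in tolerance. The cycling cells made up 3.28%, 4.67% and 6.63%.

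Depth was similar between pools. The median cell held between 4279 and 5898 UMIs over the 6 combinations of pool and lane, with a mitochondrial share of 2.74% to 3.63%, and the summed counts per combination ran from 2096347 to 6531779 UMIs. No barcode of these cells occurred in both lanes, and no barcode was in more than 1 pool of a lane. Their own hashtag gave 99.0% to 99.3% of the hashtag UMIs. The surface CLEC12A tag had a median of 26 and 31 UMIs per cell in the control lanes, 31 and 37 in asthma, and 43 and 57 in tolerance. Cells with at least 2 UMIs of Xcr1, a gene of cross-presenting dendritic cells, had pool medians of 92 to 117. Clec12a mRNA stood at 51.0 CPM in control, 48.9 in asthma and 75.4 in tolerance, where CPM is the share of a gene in the summed UMIs of the cells, scaled to counts per 1000000.

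The label was checked against Car4 and Fabp1, marker genes that the rule did not use, and along the sum of Chil3, Ear1 and Krt79. In the 685 cells at 50 to 100 per 10000, Fabp1 stood at 464 CPM, Siglecf at 167 and Marco at 331. In the 1212 cells at 400 or more, Fabp1 stood at only 54.8 CPM, Siglecf at 48.2 and Marco at 158. Car4 ran the other way over these bins, from 348 to 991 CPM. The bins differed in pool. Of the 685 cells 607 were control, while the 1212 cells were 739 asthma, 465 tolerance and 8 control cells. Levels along the sum therefore cannot be told apart from treatment. The 120 cells just inside the threshold, at 10 to 20 per 10000, were different: Fabp1 and Marco were at 0, Siglecf at 3.49 CPM, and the neutrophil genes S100a8 and S100a9 at 1868 and 2413 CPM. Just outside it, the 233 cells at 5 to 10 per 10000 had Fabp1 at 1.71 CPM and S100a8 at 1604 CPM. The 77 cells at 20 to 50 per 10000, 32 of them control, held Fabp1 at 119 CPM, more than the cells at 400 or more. They also held Plac8 at 1721 CPM and Ccr2, the monocyte chemokine receptor, at 616 CPM. Car4 did not separate the bins at the threshold, with 243 CPM at 5 to 10, 216 at 10 to 20 and 27.1 at 20 to 50. The cells at 10 to 50, called low-marker below, were 2.72% of the control, 3.77% of the asthma and 8.88% of the tolerance alveolar macrophages as defined by the rule. Counts over all genes and some list counts are therefore also given for cells at 50 per 10000 or more. These were 2293 control, 1581 asthma and 729 tolerance cells, and the limit was chosen after seeing the data. List counts without a second value hold for the rule's cells only, and some of them changed at the stricter limit.

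Chil3 (Ym1, a chitinase-like protein; chr3:106147554-106167564, minus strand, GRCm38) was higher in both challenged pools. It stood at 12172 and 11662 CPM in the control lanes, 46682 and 41072 in asthma, and 52499 and 46302 in tolerance. The level in the treated lanes was thus above that of both control lanes, and asthma and tolerance lanes overlapped. Ear1, an eosinophil-type ribonuclease of alveolar macrophages, went the other way, with 680 and 695 CPM in control, 275 and 278 in asthma, and 253 and 241 in tolerance. Krt79, an epithelial-type keratin that marks these macrophages, stood at 557 and 571 CPM in control, 576 and 550 in asthma, and 479 in both tolerance lanes. The marker genes of the rule therefore moved apart: 1 higher, 1 lower and 1 nearly level.

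Car4, a membrane carbonic anhydrase, was at 432 and 494 CPM in the control lanes, 856 and 826 in asthma, and 736 and 801 in tolerance. Its log2 ratio to control was 0.86 (0.80 to 0.91) in asthma and 0.73 (0.67 to 0.79) in tolerance. Fabp1, a fatty-acid carrier (chr6:71199827-71205023, plus strand), stood at 430 and 466 CPM in control, 135 and 170 in asthma, and 92.5 and 109 in tolerance. That is a log2 ratio of -1.55 (-1.64 to -1.46) in asthma and -2.15 (-2.29 to -2.01) in tolerance, with no overlap between pools. The per-cell shares followed. After thinning every cell to 1000 UMIs, 31.3% of control, 12.9% of asthma and 7.24% of tolerance cells held a Fabp1 UMI. In B cells of the same lanes (at least 5 UMIs of Cd79a, Ms4a1 and Ighm, and a marker sum under 10), which lack this gene, it was 0 of 580, which allows a share of up to 0.634% by the exact interval. Without thinning the shares were 66.5%, 29.8% and 23.6% against 0.849% in B cells, at median depths of 4940, 4398, 5405 and 2086 UMIs.

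**Figure D1:**
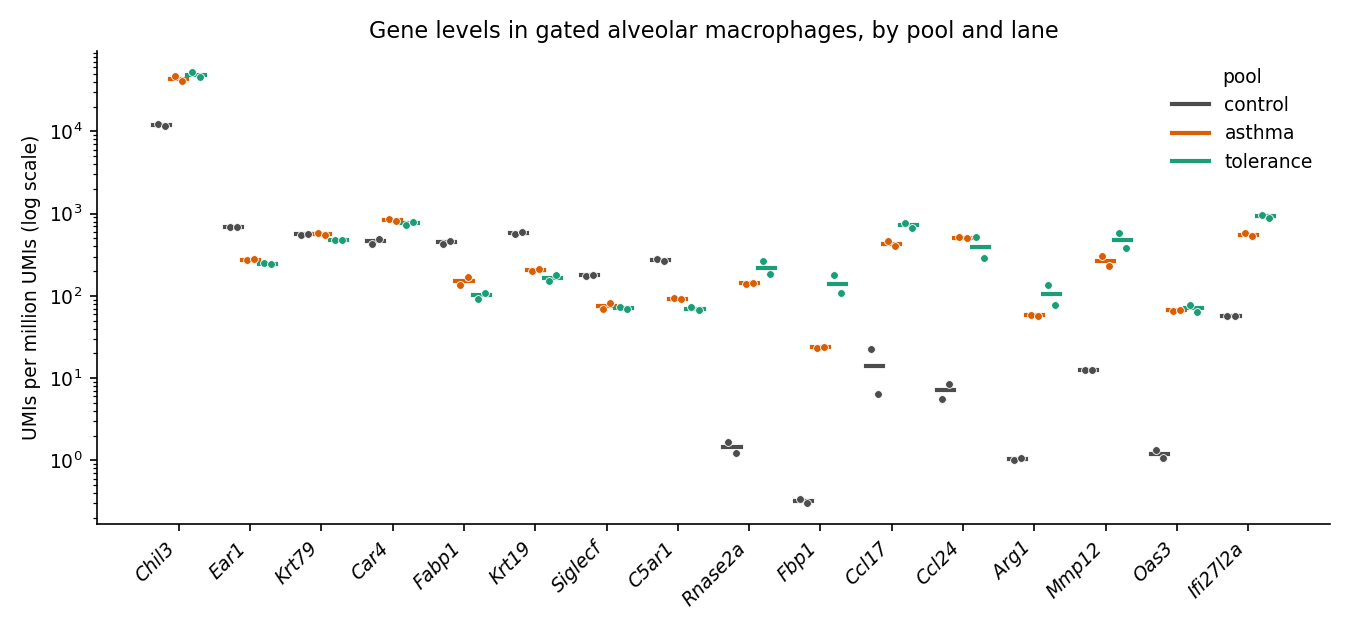
Level of 16 genes in the alveolar macrophages, in CPM on a log axis; points are the 2 lanes and bars the pooled value of control (grey), asthma (orange) and tolerance (green). Chil3 is higher and Fabp1, Krt19, Siglecf and C5ar1 are lower in both challenged pools than in control, and Fbp1 is highest in tolerance.

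Across all genes, a gene was tested in a comparison when it had at least 100 UMIs in the pair of pools, and was called when its log2 ratio was at least 1 (a 2-fold difference) in the summed lanes and in each lane. In asthma against control, 194 of 8994 genes were called higher (2.16%) and 117 lower (1.30%). In tolerance against control, 214 of 8738 were called higher (2.45%) and 156 lower (1.79%). The median log2 ratio of all tested genes was -0.10 and -0.12. Scaling by TMM factors, which brings these medians to about 0, turned the split to 220 higher and 83 lower in asthma, and to 257 and 107 in tolerance. With the marker sum at 50 or more per 10000 the counts were 196 and 122 in asthma, and 195 and 163 in tolerance. Tolerance against asthma gave far fewer: 20 of 7905 higher (0.253%) and 6 lower (0.0759%). The 2 comparisons with control share the control pool.

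**Figure D2:**
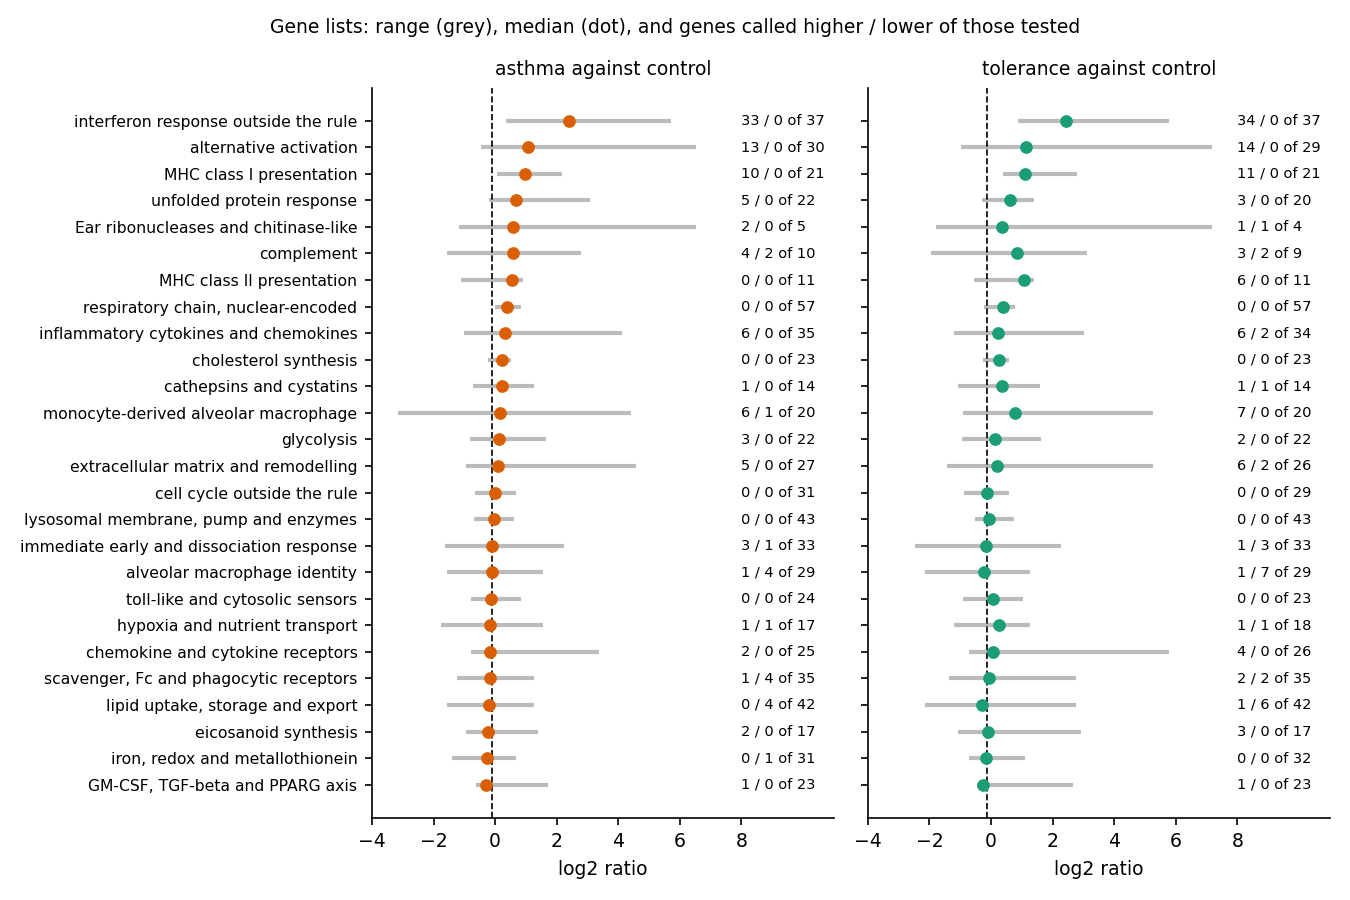
Log2 ratios of the genes of 26 lists in asthma against control (left) and tolerance against control (right): grey lines span lowest to highest, dots are medians, the dashed line is the median of all tested genes, and the text gives genes called higher / lower of those tested. The interferon list has 33 and 34 of 37 genes called higher, and the respiratory chain and lysosome lists have none called.

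Alternative activation held the largest ratio of any listed gene. Of its genes, 13 of 30 were called higher in asthma and 14 of 29 in tolerance, and none lower, with list medians of 1.07 and 1.14. Rnase2a, a ribonuclease of the eosinophil-associated family (chr14:51255262-51256112, minus strand), stood at 1.69 and 1.22 CPM in the control lanes, 141 and 142 in asthma, and 262 and 185 in tolerance. Its log2 ratio to control was 6.54 (5.95 to 7.38) in asthma and 7.18 (6.59 to 8.02) in tolerance. Near-identical members of that family can share reads, so its level is less certain. Arg1, which turns arginine into ornithine, was at 1.01 and 1.07 CPM in control, 58.6 and 57.0 in asthma, and 137 and 77.9 in tolerance. Ccl17, a chemokine that attracts Th2 cells, stood at 22.6 and 6.43 CPM in control, 465 and 403 in asthma, and 779 and 670 in tolerance. Ccl24, an eosinophil-attracting chemokine, was at 5.56 and 8.57 CPM in control, 513 and 505 in asthma, and 525 and 286 in tolerance. For each of these genes both lanes of either challenged pool were above both control lanes.

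Some of that mRNA was plentiful elsewhere in the same lanes. Ccl24 stood at 2192 CPM and Ccl17 at 1592 CPM in the asthma cells outside the alveolar macrophage classes. After thinning to 1000 UMIs, a Ccl24 UMI was found in 0.895% of control, 8.68% of asthma and 8.64% of tolerance alveolar macrophages, beside 3.103% of the B cells; for Ccl17 the shares were 0.938%, 11.9% and 17.3%, beside 2.41%. The control shares lay under those of the B cells, and both challenged pools lay above them. The B cells were shallower before thinning, with a median of 2086 UMIs against 4940 in control alveolar macrophages. Whether any of these UMIs are background was not tested. For Rnase2a the shares were 0.171%, 7.69% and 11.7%, beside 0.172%. Mrc1, the mannose receptor often taken as an alternative activation marker, had a log2 ratio of 0.51 in asthma and 0.20 in tolerance and was not called.

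Interferon-response genes outside the 6 used by the rule were called higher most often. In asthma 33 of 37 and in tolerance 34 of 37 were called higher and none lower, with medians of 2.40 and 2.43, although the interferon-high cells had been set aside. Oas3, a sensor of double-stranded RNA, stood at 1.35 and 1.07 CPM in the control lanes, 65.4 and 67.5 in asthma, and 78.2 and 63.4 in tolerance. Ifi27l2a was at 56.3 and 57.1 CPM in control, 581 and 531 in asthma, and 974 and 885 in tolerance. Rtp4 was at 3.20 and 4.75 CPM in control, 62.8 and 68.5 in asthma, and 75.4 and 86.3 in tolerance. The lanes of the challenged pools lay far above control, and asthma and tolerance overlapped for Oas3 only among these 3 genes. Isg15, a rule gene, had pool levels of 9.15, 174 and 166 CPM.

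The cut on interferon genes ran through a continuous range. In asthma 119 retained cells lay between 10 and 20 UMIs per 10000 and 59 of the 94 set-aside cells between 20 and 40; in tolerance 63 retained and 51 of 87 set-aside cells did. At the other end, 94.2% of control, 60.7% of asthma and 56.1% of tolerance cells held no UMI of the 6 rule genes. Among those cells alone, a choice made after seeing the data, 17 of 30 list genes were called higher in asthma and 16 of 28 in tolerance. None was called lower, and the list medians were 1.42 and 1.26. Over all genes tested in those cells the medians were -0.07 and -0.09, and 95 and 111 genes were called higher.

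The promoters of these genes were searched for the letters GAAA, any 2 bases and GAAA, a short form of the interferon-stimulated response element, on both strands, over 250 bases before to 50 after the first start listed for each gene in RefSeq (GRCm38.p6). Of the list genes called higher in either comparison, 27 had a promoter in that table, and 15 of them (55.6%) held the letters, beside 943 of 27025 promoters in all (3.49%). The promoters of Oas3 and of the genes with the next largest asthma ratios among those with a match, Slfn8 and Gbp2, are shown 5′ to 3′ because they carry it, with the matched letters in capitals; Slfn8 and Gbp2 were chosen after their values were seen. Oas3 lies at chr5:120777610-120777909 (minus strand), Slfn8 at chr11:83020761-83021060 (minus strand) and Gbp2 at chr3:142620413-142620712 (plus strand).
Oas3: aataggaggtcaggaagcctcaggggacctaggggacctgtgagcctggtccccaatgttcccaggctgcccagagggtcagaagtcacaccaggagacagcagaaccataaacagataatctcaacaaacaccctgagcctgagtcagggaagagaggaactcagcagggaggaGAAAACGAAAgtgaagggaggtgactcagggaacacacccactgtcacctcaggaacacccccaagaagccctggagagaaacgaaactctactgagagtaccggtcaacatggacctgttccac
Slfn8: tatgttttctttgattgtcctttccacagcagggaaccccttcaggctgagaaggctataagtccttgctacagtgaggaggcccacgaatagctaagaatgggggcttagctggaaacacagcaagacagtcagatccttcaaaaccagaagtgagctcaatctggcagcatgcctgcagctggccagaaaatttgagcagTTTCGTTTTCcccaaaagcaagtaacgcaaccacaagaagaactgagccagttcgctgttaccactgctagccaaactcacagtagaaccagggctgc
Gbp2: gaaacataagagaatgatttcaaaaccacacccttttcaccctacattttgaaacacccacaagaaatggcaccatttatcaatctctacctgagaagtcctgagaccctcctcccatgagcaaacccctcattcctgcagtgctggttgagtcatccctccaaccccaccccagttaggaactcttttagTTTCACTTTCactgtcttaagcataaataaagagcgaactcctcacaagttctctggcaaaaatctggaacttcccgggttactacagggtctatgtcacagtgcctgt
In Oas3 the letters stood on the gene's own strand, and in Slfn8 and Gbp2 on the other strand, where the printed strand shows their reverse complement. Slfn8, a member of a family of close copies, stood at 2.36 and 3.37 CPM in control, 30.2 and 21.1 in asthma, and 28.6 and 23.8 in tolerance. Gbp2, an interferon-induced GTPase, was at 18.4 and 17.3 CPM in control, 129 and 135 in asthma, and 95.4 and 125 in tolerance. For the called alternative activation genes, a STAT6-type motif (TTC, any 4 bases and GAA) was found in 1 of 11 promoters, that of Ccl17, beside 6.99% of all promoters. A match is a run of letters and not a binding site.

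In asthma, antigen presentation differed between its classes, with list medians of 0.96 for MHC class I and 0.55 for class II. In tolerance the medians were close, at 1.11 and 1.07. Among MHC class I genes, 10 of 21 were called higher in asthma and 11 of 21 in tolerance, and all 21 had a ratio above 0 in both. B2m, the common light chain, stood at 1475 and 1415 CPM in the control lanes, 3096 and 2855 in asthma, and 3396 and 3496 in tolerance. Tap1, the peptide transporter, was at 25.6 and 26.3, then 90.9 and 87.4, then 114 and 105 CPM in the same order. H2-Q6 and H2-Q7 were called in both, but as close copies they may share reads. Of 11 MHC class II genes none was called in asthma and 6 were called higher in tolerance (4 with the stricter marker sum). H2-Ab1 stood at 607 and 519 CPM in control, 997 and 1007 in asthma, and 1528 and 1422 in tolerance. Cd74, the invariant chain, rested at 2019 and 1959, then 3000 and 3192, then 4499 and 4743 CPM. The lanes were ordered control, asthma, tolerance for both genes, but tolerance against asthma had a log2 ratio of only 0.55 and 0.58 and was not called. Cells outside the alveolar macrophage classes held H2-Ab1 at 7154 to 8146 CPM.

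Genes of alveolar macrophage identity were mixed. Of 29 tested outside the rule, 4 were called lower and 1 higher in asthma, and 7 lower and 1 higher in tolerance, with list medians of -0.10 and -0.22, close to those of all genes. Krt19, a keratin, stood at 569 and 599 CPM in control, 203 and 211 in asthma, and 150 and 177 in tolerance. Siglecf, the sialic acid receptor by which these cells are commonly sorted, was at 176 and 181 CPM in control, 69.9 and 80.9 in asthma, and 73.5 and 70.0 in tolerance. Its log2 ratio was -1.24 (-1.38 to -1.11) in asthma and -1.31 (-1.49 to -1.15) in tolerance. Marco, a scavenger receptor, was at 360 and 384, then 236 and 238, then 140 and 150 CPM, and was called in tolerance only; the tolerance to asthma log2 ratio was -0.71 (-0.84 to -0.58). Slc7a2, an arginine transporter, was the gene called higher, with 353 and 356 CPM in control, 1079 and 992 in asthma, and 864 and 850 in tolerance. Ear2 and Lpl, both highly expressed members of the list, had log2 ratios between -0.16 and 0.17 to control.

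In lipid uptake, storage and export, 4 of 42 genes were called lower in asthma and 6 of 42 in tolerance. Besides Fabp1 these included Pltp, the phospholipid transfer protein, at 93.8 and 91.6 CPM in control, 36.8 and 42.7 in asthma, and 41.5 and 30.8 in tolerance. Apoc1 and Angptl4 were lower in both as well, with log2 ratios of -1.43 and -1.06 in asthma and -1.60 and -1.38 in tolerance. Msr1, a scavenger receptor for modified lipoprotein, was the 1 gene of this list called higher, in tolerance. With the stricter sum 5 genes of the list were called lower and 1 higher in asthma. Cholesterol synthesis had none of 23 genes called in either comparison.

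Of the complement genes, 4 of 10 were called higher and 2 lower in asthma, and 3 of 9 higher and 2 lower in tolerance. With the stricter sum 4 were called higher in tolerance. The components C3, C4b and Cfb were called higher, and the C5a receptors C5ar1 and C5ar2 lower, in both comparisons. Properdin (Cfp) was called higher in asthma, with log2 ratios of 1.02 in asthma and 0.85 in tolerance. C3 stood at 95.3 and 95.2 CPM in control, 316 and 302.3 in asthma, and 292 and 307 in tolerance. C5ar1 (chr7:16246743-16259540, minus strand) was at 283 and 263 CPM in control, 94.3 and 91.6 in asthma, and 73.5 and 67.1 in tolerance. Its log2 ratio was -1.55 (-1.67 to -1.44) in asthma and -1.95 (-2.13 to -1.79) in tolerance.

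Secreted factors and matrix genes gave 6 of 35 inflammatory cytokine and chemokine genes called higher in asthma, with none lower, and 6 of 34 higher and 2 lower in tolerance. With the stricter sum 8 of these genes were called higher in asthma. Il1b was at 502 and 485 CPM in the control lanes, 1259 and 1350 in asthma, and 1442 and 1470 in tolerance. Il6 stood at 10.8 and 15.9, then 41.0 and 61.0, then 39.1 and 35.4 CPM. Csf1, the macrophage growth factor, was at 1.01 and 1.99 CPM in control, 25.7 and 29.6 in asthma, and 14.8 and 18.8 in tolerance; it fell short of 100 UMIs in the tolerance comparison. In matrix and remodelling, 5 of 27 genes were called higher in asthma, and 6 of 26 higher and 2 lower in tolerance. Mmp12, the macrophage elastase, stood at 12.6 and 12.4 CPM in control, 308 and 233 in asthma, and 585 and 387 in tolerance. Its tolerance lanes were both above its asthma lanes, but the log2 ratio of 0.83 was under the 2-fold rule. Timp1, a metalloprotease inhibitor, was at 1.35 and 1.68, then 27.1 and 22.1, then 51.5 and 23.8 CPM.

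Of the metabolic and stress lists, the unfolded protein response had the highest medians. Of its genes, 5 of 22 were called higher in asthma and 3 of 20 in tolerance, with medians of 0.68 and 0.62. Creld2, an endoplasmic reticulum chaperone, was at 59.5 and 56.8 CPM in control, 142 and 143 in asthma, and 147 and 156 in tolerance. None of 57 nuclear genes of the respiratory chain was called in either comparison, yet all 57 had a ratio above 0 in asthma and 54 in tolerance, with medians of 0.38 and 0.37. In glycolysis 3 of 22 and 2 of 22 genes were called higher, among them Pgk1, at 117 and 108 CPM in control, 286 and 281 in asthma, and 308 and 268 in tolerance. None of 43 lysosomal genes was called in either comparison, with medians of -0.03 and -0.05. The immediate early list, which also reads handling of the cells, had 3 of 33 genes higher and 1 lower in asthma, and 1 higher and 3 lower in tolerance. With the stricter sum it had 4 higher and 2 lower in asthma. Egr3 was called lower in both, and Egr1 in tolerance. Egr1 stood at 892 and 862 CPM in control, 399 and 437 in asthma, and 244 and 221 in tolerance.

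The remaining lists had few calls. Il18bp, a secreted blocker of interleukin 18, was called higher in both comparisons, at 1.52 and 3.52 CPM in control, 29.4 and 25.4 in asthma, and 33.9 and 25.01 in tolerance. Il7r, the interleukin 7 receptor, had 4 UMIs in control and stood at 11.8 and 8.03 CPM in asthma and 21.9 and 21.3 in tolerance; it was called in tolerance, but not with the stricter sum. Scavenger and Fc receptors had 1 of 35 higher and 4 lower in asthma, and 2 higher and 2 lower in tolerance. Eicosanoid synthesis had 2 of 17 and 3 of 17 higher (0 and 2 with the stricter sum), and cathepsins 1 of 14 higher in both with 1 lower in tolerance. Hypoxia and nutrient transport genes had 1 called in each direction in both comparisons. Among iron and redox genes 1 of 31 was lower in asthma and none of 32 was called in tolerance. Toll-like sensors (24 and 23 genes) and cell-cycle genes outside the rule (31 and 29) had no call in either. The Ear ribonuclease and chitinase-like list had Rnase2a and Chil4 called higher of 5 genes in asthma, and Rnase2a higher and Ear6 lower of 4 in tolerance; Chil4 is a close copy of Chil3 and may share its reads.

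A list of genes known from monocyte-derived alveolar macrophages had 6 of 20 called higher and 1 lower (Ly6c2) in asthma, and 7 of 20 higher in tolerance, with medians of 0.16 and 0.78. The lower call of Ly6c2 was lost with the stricter sum. The summed level of the list was lower in both challenged pools, at 21758 CPM in control, 15689 in asthma and 17306 in tolerance, most of it lysozyme (Lyz2), at 18505, 11343 and 12036 CPM. The list shares Mmp12 and Il1b with those above. Ms4a7, a membrane protein of tissue macrophages, stood at 10.8 and 9.34 CPM in control, 26.8 and 26.6 in asthma, and 24.8 and 30.01 in tolerance. Its pools of challenged cells overlapped each other and not control.

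Outside the lists, Fbp1 had the largest ratio. Fbp1, which encodes fructose bisphosphatase, an enzyme of gluconeogenesis (chr13:62864753-62888282, minus strand), had 4 UMIs in all control cells, or 0.337 and 0.306 CPM by lane. It stood at 23.4 and 23.9 CPM in asthma and at 178 and 107 in tolerance. Its log2 ratio to control was 5.89 (4.82 to 8.09) in asthma and 8.45 (7.41 to 10.65) in tolerance. Tarm1, a receptor that stimulates myeloid cells, was at 0.506 and 1.07 CPM in control, 32.0 and 32.1 in asthma, and 30.5 and 26.3 in tolerance. AA467197 was at 16.4 and 11.8, then 440 and 381, then 588 and 436 CPM. Among those called lower, Akap5, a kinase anchor, was at 23.6 and 19.4 CPM in control, 5.52 and 4.77 in asthma, and 6.20 and 8.75 in tolerance. Coro6, an actin-binding coronin, was at 23.8 and 19.9, then 4.73 and 7.53, then 3.82 and 2.08 CPM.

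Chil3 also differed among the cells of 1 pool, and that spread was wider after challenge. In control cells the 5th to 95th percentile ran from 52.4 to 198 Chil3 UMIs per 10000 around a median of 108. In asthma it ran from 65.9 to 884 around 345, and in tolerance from 15.2 to 900 around 457. Without the low-marker cells it ran from 60.0 to 199 around 109 in control, from 93.5 to 890 around 361 in asthma, and from 129 to 906 around 483 in tolerance. By lane the medians were 113 and 102 in control, 382 and 307 in asthma, and 485 and 431 in tolerance. Above 200 per 10000 lay 4.75% of the control, 70.3% of the asthma and 79.9% of the tolerance cells. After thinning to 2000 UMIs per cell, the Fano factor of Chil3 (the variance over the mean, which is 1 for pure counting noise) was 4.97 and 5.94 in the control lanes, 33.7 and 34.9 in asthma, and 28.5 and 27.8 in tolerance. The median Fano factor over the 2566 genes compared was 1.05. At an equal relative spread the Fano factor rises with the mean. Thinned Chil3 means were 24.3 and 22.3 UMIs in control, 89.2 and 74.9 in asthma, and 101 and 88.8 in tolerance. These Fano factors therefore do not measure spread apart from level, between pools or against other genes.

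**Figure D3:**
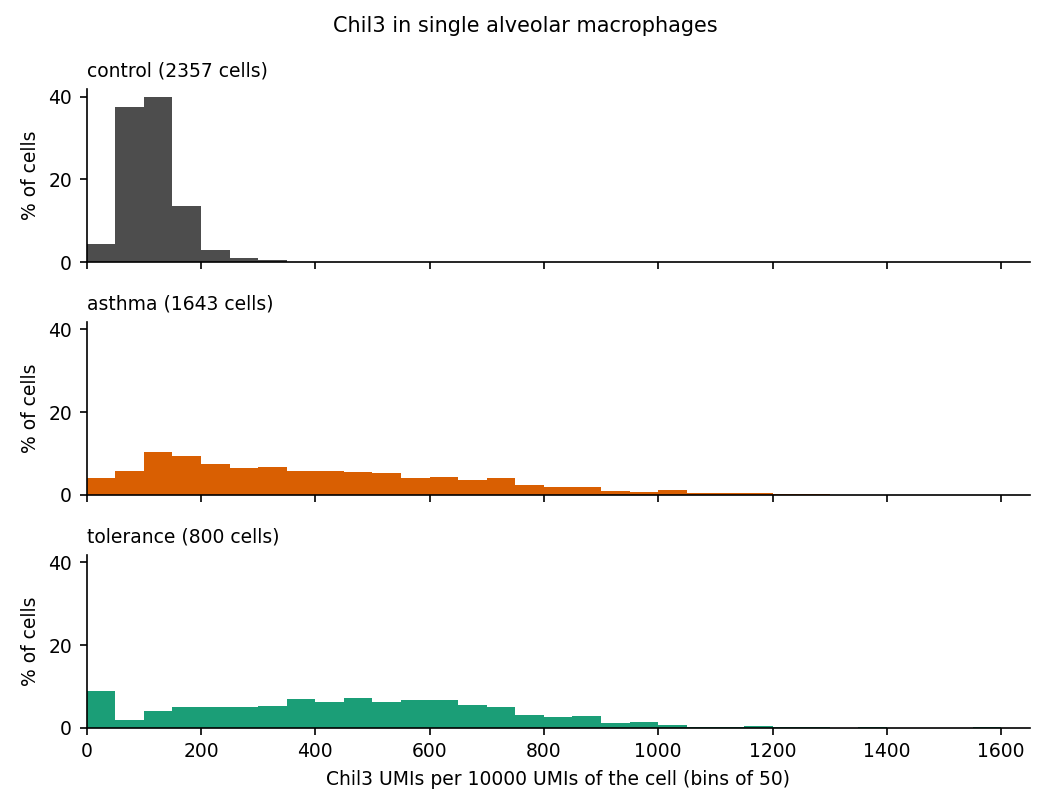
Percent of alveolar macrophages by Chil3 UMIs per 10000 UMIs of the cell, in bins of 50, for control, asthma and tolerance. Control cells gather around their median of 108, while asthma and tolerance cells spread from the control range up to about 900 at their 95th percentiles.

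The cells of each pool and lane were ranked by Chil3 and split into 3 equal groups, using only cells with a marker sum of 50 or more per 10000. The ranking was chosen after seeing the data and Chil3 sets it, so the groups are ranges of 1 gene and not cell types, and the contrasts are descriptions. In asthma, 66 of 5801 genes were called higher in the high-Chil3 than in the low-Chil3 group (1.14%) and 127 lower (2.19%). Tolerance gave 15 of 4048 higher (0.371%) and 32 lower (0.791%), and control 3 of 7146 higher (0.0420%) and 4 lower (0.0560%). The high-Chil3 group was also deeper, with median UMIs of 5430.5 against 3818 in asthma, 6194 against 5066 in tolerance and 5386.5 against 4660 in control. Its mitochondrial share was higher as well, at 3.26% against 2.44% in asthma. The part of depth in these contrasts was not tested.

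Fabp1 and Chil3 were inversely arranged in the challenged pools. From the low through the middle to the high-Chil3 group, Fabp1 stood at 379, 122 and 27.0 CPM in asthma and at 191, 77.5 and 63.4 in tolerance, but at 478, 439 and 445 in control. In asthma the low group had 327 and 429 CPM by lane and the high group 26.3 and 27.7. C5ar1 stood at 234, 63.2 and 20.007 CPM in asthma, 155, 37.0 and 27.8 in tolerance, and 270, 286 and 268 in control. Ear1, Krt19 and Siglecf had the same order in both challenged pools. Ear1 was at 533, 294 and 93.7 CPM in asthma against 694, 695 and 703 in control. It counts towards the marker sum that admits these cells, and how far the gate favours its order was not tested. In Fabp1, C5ar1, Krt19 and Siglecf, which the gate did not use, the low-Chil3 asthma cells were nearest to the control cells. Krt79 did not follow, at 617, 600 and 528 CPM in asthma.

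Other genes were gathered in the high-Chil3 cells. Rnase2a stood at 10.3, 46.2 and 316 CPM across the groups in asthma and at 52.0, 183 and 409 in tolerance. Fbp1 was at 2.34, 10.5 and 51.0 CPM in asthma and at 12.6, 94.9 and 310 in tolerance. Ccl17 was at 94.2, 198 and 828 CPM in asthma, where its low group differed by lane (169 and 22.9), and at 60.6, 875 and 1223 in tolerance. Ch25h, which makes 25-hydroxycholesterol, stood at 136, 402 and 684 CPM in asthma, 192, 483 and 619 in tolerance, and 56.6, 61.6 and 79.6 in control. Irf4, a transcription factor of the IL-4 response, was at 26.7, 104 and 183 CPM in asthma and at 28.3, 78.2 and 98.9 in tolerance. Not all alternative activation genes were arranged so: Ccl24 stood at 192, 160 and 818 CPM in asthma but at 446, 157 and 371 in tolerance. The class II gene H2-Aa was flat, at 811, 932 and 860 CPM in asthma.

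**Figure D4:**
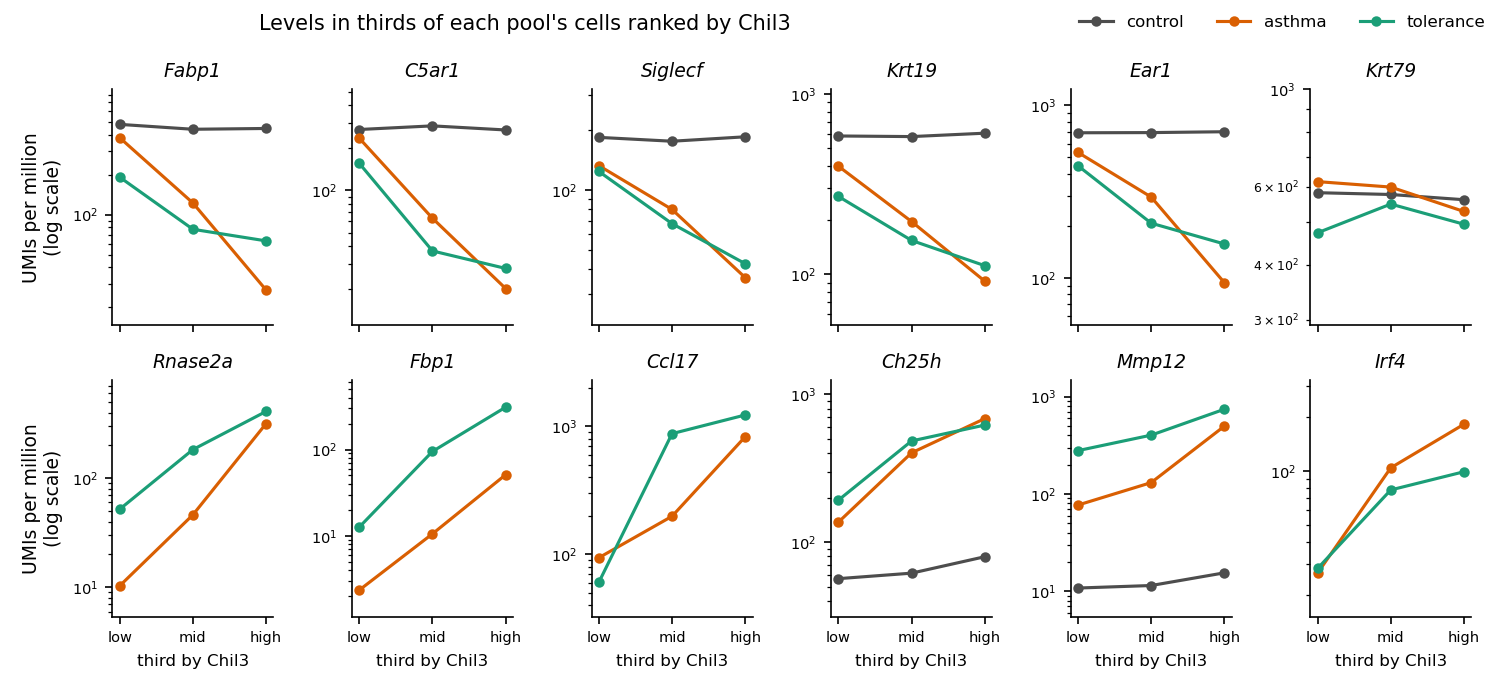
Levels of 12 genes (CPM, log axis) in the low, middle and high groups of cells ranked by Chil3 within each pool; a pool is not drawn where the gene had under 100 UMIs in the outer groups. Fabp1 falls from 379 to 27.0 and Rnase2a climbs from 10.3 to 316 across the asthma groups, while the control lines for Fabp1, C5ar1, Siglecf, Krt19 and Ear1 are flat.

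Of the genes outside the rule, 15 had the highest lowest Fano factor over the 6 combinations of pool and lane. They were Gm42418, Lyz2, Fth1, Cd74, Ifitm3, Tmsb4x, Malat1, Ccl6, mt-Atp6, Cxcl2, Mt1, S100a6, Crip1, Ftl1 and Il1b. Their lowest values ran from 8.45 for Gm42418, a locus that overlaps ribosomal RNA, to 3.63 for Il1b. Lyz2, lysozyme, ranged from 7.30 to 9.99 and the ferritin chain Fth1 from 6.45 to 8.33. Their means were 21.3 to 37.4 and 24.5 to 38.2 UMIs per thinned cell, and the ranking favours such abundant genes. Ifitm3 ranged from 5.79 to 11.2 at a mean of only 0.12 to 0.44 UMIs per thinned cell. Ifitm3 stood at 3076 CPM in the cells at 10 to 20 marker UMIs per 10000 and at 53.5 CPM in those above 400. Of the 4800 cells, 287 held under 2000 UMIs and were left out of this measure.

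Between tolerance and asthma, many calls were lost under other settings. Of the 20 genes called higher, 7 were also called with the marker sum at 50 or more per 10000, where 10 genes were called in all; all 6 genes called lower were called again, among 7. That kept 13 of the 26 calls, while either lane alone kept 14 or 12, and all 26 kept their sign. Ly6c2, a monocyte surface gene, stood at 26.7 and 24.6 CPM in tolerance and 0.788 and 3.52 in asthma, but at 13.0 and 27.7 in control. Its log2 ratio was 3.48 (2.81 to 4.38) with the rule and 2.42, without a call, with the stricter sum. Ly6a had 2.88 and 1.08 in the same way. Ly6a, Ly6c2 and Ly6i belong to the same gene family, and whether any of them shares reads with a relative was not tested. Summed over its 11 genes, the monocyte marker list stood at 1434 CPM in control, 1678 in asthma and 2107 in tolerance. With the stricter sum it stood at 1361, 1583 and 1868. The 10 neutrophil markers stood at 112, 136 and 262 CPM, and at 95.1, 77.2 and 104 with the stricter sum. With the rule their lanes differed, at 102 and 122 CPM in control, 181 and 93.4 in asthma, and 114 and 391 in tolerance.

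Fbp1 was the gene with the largest ratio that was called under both. Tolerance exceeded asthma by a log2 ratio of 2.57 (2.33 to 2.82), and by 2.61 with the stricter sum. After thinning to 1000 UMIs, 0.0426% of control, 1.54% of asthma and 7.75% of tolerance cells held an Fbp1 UMI, and none of 580 B cells did. Ccr2 stood at 102 and 76.7 CPM in tolerance, 26.5 and 36.9 in asthma, and 20.2 and 21.6 in control. Msr1 was at 36.3 and 40.4 CPM in tolerance, 16.02 and 11.3 in asthma, and 5.396 and 5.97 in control. Hopx, a homeodomain-only protein, was at 35.8 and 42.1, then 9.98 and 17.3, then 14.2 and 7.20 CPM in the same order. Pla2g7, a phospholipase that inactivates platelet-activating factor, was at 24.8 and 32.1, then 8.67 and 11.05, then 3.04 and 4.44 CPM. Ccr2, Msr1, Hopx and Pla2g7 were called under both sums, as were Ass1 and Gm4951. Cells outside the alveolar macrophage classes held Ccr2 at 358 to 595 CPM.

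Of the genes called lower in tolerance than in asthma, Hspa1b, an inducible heat shock protein with a near-identical copy, stood at 32.9 and 19.6 CPM in tolerance, 69.6 and 87.6 in asthma, and 28.7 and 26.6 in control. Slc5a3, a myo-inositol transporter, was at 23.4 and 20.8, then 53.9 and 50.7, then 52.3 and 57.6 CPM. Tc2n was at 10.97 and 7.92, then 24.4 and 20.3, then 47.4 and 50.4 CPM. Tagap, a GTPase activator, was at 7.16 and 7.09, then 17.1 and 15.8, then 2.19 and 2.60 CPM. The pattern over the 3 pools thus differed from gene to gene: the tolerance lanes were near control for Hspa1b, and the asthma lanes near control for Slc5a3.

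**Figure D5:**
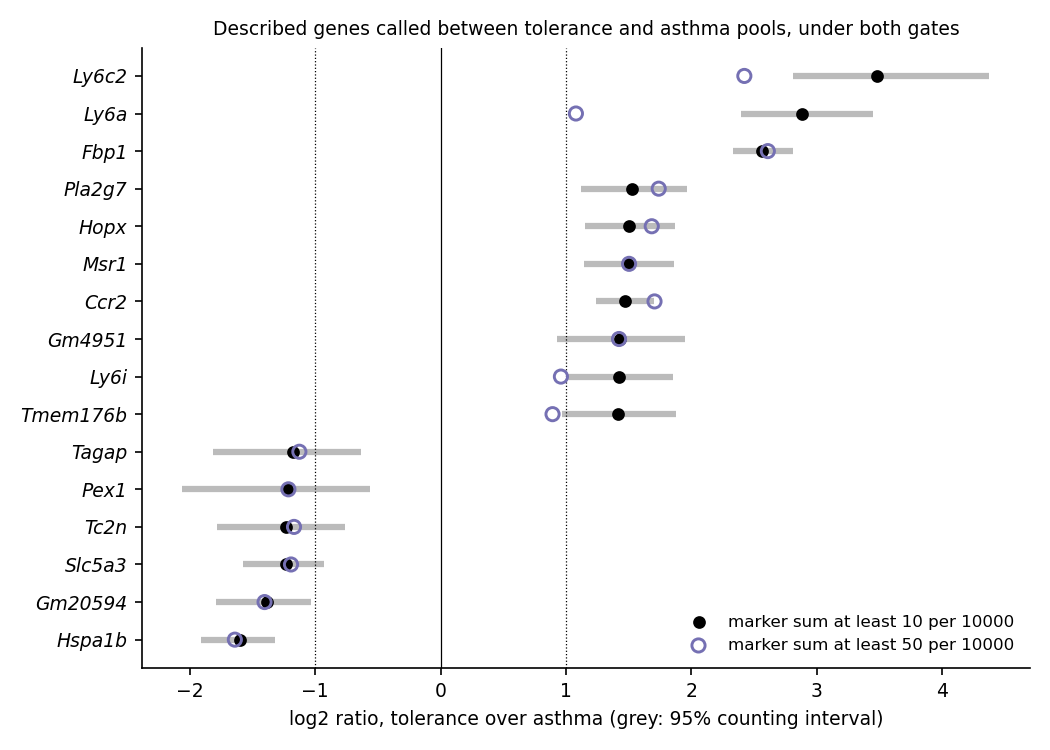
Log2 ratio of tolerance over asthma for the 16 described genes called in that comparison, with 95% counting intervals in grey; filled points use the rule's marker sum of 10 or more per 10000 and open circles 50 or more. Fbp1 stays at 2.57 and 2.61, while Ly6a goes from 2.88 to 1.08.

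The neighbouring classes showed where the cells stood apart. Differences between classes follow partly from how they were cut and are descriptions. The interferon-high alveolar macrophages (94 in asthma, 87 in tolerance) held Chil3 at 41039 and 46957 CPM, close to the cells described here, but Fabp1 at only 48.8 and 23.2 CPM and Ch25h at 879 and 736. Their Irf7 stood at 648 and 615 CPM, beside 83.2 and 103. The cycling alveolar macrophages of the challenged pools held Arg1 at 3.83 and 7.84 CPM, beside 57.8 and 105. These levels rest on 2 and 4 UMIs in 85 and 63 cells. Their Ccl24 was at 30.7 and 86.2 CPM, beside 509 and 398. Fbp1 was at 30.7 and 92.1 CPM in cycling cells, beside 23.6 and 140. In the asthma cycling cells Fbp1 had 16 UMIs, with lanes at 59.6 and 0 CPM.

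The C1q-positive cells (71 in control, 304 in asthma, 456 in tolerance) were chosen by their C1q UMIs. Their sum of Chil3, Ear1 and Krt79 had to lie under the rule's limit, so their low Chil3 (122 to 243 CPM) was set by the cut. Cells with dendritic cell genes were not removed from this class. Its Cd209a stood at 403 CPM in control, 41.3 in asthma and 6.86 in tolerance. The C1q-positive cells shared several of the challenge genes. Rnase2a stood at 452 CPM in their asthma and 211 CPM in their tolerance cells, with no UMI in control, Arg1 at 500 and 312 CPM, and Ccl24 at 4661 and 1467 CPM. Fbp1 was at or near 0 in them: it had 0 UMIs in asthma (an exact upper limit of 2.15 CPM) and 2 in tolerance (0.0722 to 2.15 CPM). C5ar1 had 145, 112 and 111 CPM in control, asthma and tolerance C1q-positive cells, a smaller span than the 272, 92.9 and 70.1 CPM of the alveolar macrophages. The difference between the classes was not tested.

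Markers of other cells were present to different degrees. The monocyte list was not low against its outside level, with 1434, 1678 and 2107 CPM beside 2661, 3192 and 3633 in the cells outside, and Fn1 and Nr4a1 made up most of it. Over the pools, the interstitial macrophage list summed to 119 to 258 CPM, beside 1927 to 5251 in the cells outside. The dendritic cell list summed to 29.1 to 52.7 CPM, beside 1775 to 2573. Both contrasts were partly set by the rule, which capped C1q UMIs and allowed no UMI of Cd209a, Xcr1 and Ccr7. These 3 genes are in the dendritic cell list, and stood at 431, 60.7 and 225 CPM in the outside control cells. B and plasma cell genes summed to 40.3 to 65.0 CPM, T and NK cell genes to 7.54 to 30.4, and endothelial and mesenchymal genes to 44.8 to 88.2. Erythroid and platelet genes summed to 9.71 to 43.4 CPM, and eosinophil and mast cell genes to 48.9 to 65.6, most of it Siglece. The epithelial list was higher than outside, with 246 to 348 CPM beside 144 to 229, mostly Cdh1 and Epcam; the epithelial keratins Krt8 and Krt18 were at 0 in all pools, as were the eosinophil genes Prg2 and Epx and the neutrophil gene Ly6g. Of the genes described, AA467197, Ccl17, H2-Ab1, H2-Q6, H2-Q7, Il7r, Tagap and Pla2g7 were at least 10 times higher in CPM in the outside cells of the control pool, Ly6c2 in those of the asthma pool, and Ccr2 and Ly6a in both. The part of such cells in the ratios was not tested beyond the stricter marker sum. The outside cells also included any that reached the marker sum but failed the C1q or dendritic cell limits. Krt79 stood at 79.4 CPM in the outside cells of control, 19.8 in asthma and 8.26 in tolerance. How far alveolar macrophages among the outside cells shaped the outside levels was not tested.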

How the data were processed

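Lung dendritic cells and macrophages of 3 treatment pools were hashtagged, mixed and run on 2 lanes of 10x Genomics droplets. The authors ran Cell Ranger 3.1.0 (STAR, mm10) to count UMIs for each cell barcode, and split barcodes by hashtag with Seurat 3.1.5; the deposited matrices hold these raw counts for 31053 genes and the antibody tags. The study removed doublets with Scrublet in its own later analysis; whether doublets were removed from the deposited matrices is not given in the sources used here.

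Pool and lane came from the labels. Cells were selected by the rule, raw counts were summed per pool and lane, and ratios of CPM were formed after adding 1 count to each side, with 95% exact conditional-binomial intervals, exact Poisson intervals for levels and Clopper-Pearson intervals for shares. With 1 pool of mice per treatment there was no test. Genes were called by a rule of size (at least 100 UMIs, log2 ratio of 1 in the sum and in each lane). The procedure was tested on simulated counts. The 36 gene lists (10 of markers of other cells), the members and the call rule were chosen with earlier results of these data known. The described genes were the 5 markers, up to 10 called genes with the largest ratio per direction and comparison outside the rule, up to 4 called genes per list (or the 2 with most UMIs where none was called) and the 15 most variable genes; other genes named were chosen after their values were seen. The symbols Clec7a, Ear11 and Mx2 were not analysed here. Some results of single genes and their lists are not reported here. Coordinates are from GENCODE M21 (GRCm38), matched by Ensembl ID, and promoters from RefSeq. Alternatives were each lane alone, 1200 genes per cell, removal of the highest 2% of Scrublet scores, marker sums of 50 and 100 per 10000, no interferon UMI, TMM (edgeR 4.0.16) and median-of-ratios (DESeq2 1.42.0) scaling, cells thinned to 2000 UMIs, a filter of 30 UMIs and 3 added counts. Scrublet's own threshold marked 0.0585% and 0.504% of cells and was not used; its scores ranked cells only. Figures and statistics used Python 3.11.15 with numpy 2.4.6, scipy 1.17.1 and scanpy 1.11.5.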

Additional observations from a re-analysis of the deposited data

How the results depend on the processing

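All genes called in a comparison with control kept their sign under every alternative but 1, where 369 of 370 did (tolerance, marker sum of 50). With cells thinned to 2000 UMIs the called genes numbered 117 higher and 56 lower in asthma, 119 and 77 in tolerance, and 7 and 2 in tolerance against asthma; each cell then gives fewer UMIs, so fewer genes pass. Among cells with no interferon UMI they numbered 95 and 42, 111 and 81, and 13 and 3. With a gene filter of 30 UMIs 186 genes were lower in asthma, and 63 were higher and 15 lower in tolerance against asthma. A marker sum of 100 left 8 and one of 50 left 10 genes higher in tolerance than in asthma. Leaving out 1 lane gave 176 to 186 higher and 125 to 168 lower in asthma, 178 to 191 and 191 to 217 in tolerance, and 24 to 28 and 9 to 10 in tolerance against asthma. Shares of alveolar macrophages in control, asthma and tolerance moved to 76.81%, 44.75% and 31.85% with at least 1200 genes per cell, to 50.15%, 37.57% and 26.66% at a marker sum of 100, to 68.2%, 39.28% and 26.99% at 50, and to 66.03%, 24.8% and 16.62% with no interferon UMI; the last is set by the removal itself. TMM factors shifted the median log2 ratio of all genes by about 0.10 to 0.13, giving 220 higher and 83 lower in asthma and 257 and 107 in tolerance. Of 7037 values of single genes and lists, 5460 moved by less than their counting interval or lane spread and 1577 moved by more. None of the called ones among these 7037 was counted as reversed. Over all called genes, 369 of 370 kept their sign in tolerance at a marker sum of 50, as given above. No paired analysis was possible because each treatment had 1 pool.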
